A study of Mus musculus with 6 samples.

Results

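The genes described here build the sarcomere, the contractile unit of heart muscle, apart from its myosins and troponins. They are 40 genes of the thin filament, the Z-disc, the M-band and titin, chosen by name out of 20121 genes in the deposited tables. All 40 were found, and all 40 passed the filter on low counts. RNA of tissue labelled heart was sequenced from 6 mouse pups aged 14 days after birth. Their strain background was a mix of ICR and C57BL/6. The mutant group held 3 Myh6-Cre; TRalphaAMI hearts. In these, Cre expressed in heart muscle cells from the Myh6 promoter switches on a dominant negative thyroid hormone receptor alpha from a knock-in allele. The control group held 3 TRalphaAMI hearts from littermates, which carry the allele without Cre. Hearts with Myh6-Cre alone were not analysed here, so effects of the Cre protein and of the receptor cannot be told apart.

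In the sarcomere, thin filaments of actin and tropomyosin are anchored at the Z-disc, where alpha-actinin cross-links them, and thick filaments are held in register at the M-band by myomesins. Titin spans from the Z-disc to the M-band, and LIM domain and ankyrin repeat proteins at these sites are known for their part in signalling under mechanical load. Thyroid hormone rises after birth in mice and is known in the heart for the switch between the myosin heavy chains, raising Myh6 and lowering Myh7.

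The libraries held 43314706 to 62095277 counts. Libraries of one group correlated at 0.992 to 0.995 across genes and libraries of different groups at 0.970 to 0.974. The mitochondrial genome took 16.7% to 18.8% of counts in mutant hearts and 22.4% to 24.9% in control hearts. As a check of the genotype labels, Myh6 averaged 3830 ± 431 CPM (counts relative to library size, with libraries scaled by edgeR's TMM factors) in mutant hearts and 37265 ± 1938 CPM in control hearts (SD, n = 3 each), and Myh7 averaged 18083 ± 922 CPM in mutant hearts and 318.7 ± 60.6 CPM in control hearts (SD, n = 3 each). The summed level of the 9 fixed heart muscle markers other than Myh6 and Myh7 was 27348 to 28403 CPM in mutant hearts and 38678 to 42801 CPM in control hearts. Among those 9, Nppa, a natriuretic peptide of the fetal heart, was 6.01-fold higher in mutant hearts and Mb, myoglobin, 2.79-fold lower. Tnni3, Tnnc1, Ryr2, Pln, Myl2 and Myl3 were also lower, by 1.16-fold (Myl2) to 2.41-fold (Tnni3). Tnnt2 was 1.03-fold lower and did not pass edgeR's test (adjusted p = 0.74). With library totals only, 5 of all 11 heart muscle markers were lower and 2 higher. Exons on the opposite strand overlap 61.5% of the exon bases of Nppa (Gm13054), 31.9% of Mb (Gm49540) and 13.3% of Myh7 (Gm31251). With a kit that does not mark strand, the reads of such overlaps cannot be told apart. Endothelial markers summed to 1694 to 1869 CPM in mutant hearts and 2095 to 2284 CPM in control hearts. Of 8, 0 were higher and 5 lower (among them Tek, Emcn, Kdr and Pecam1). Leaving out 1 heart left 2 to 5 of the 8 lower. Pecam1 lost its call in 8 and Kdr in 7 of the 14 alternative settings described below, and Tek and Emcn lost theirs in 4 each. Macrophage markers summed to 83.4 to 89.1 CPM in mutant hearts and 124.5 to 136.8 CPM in control hearts, with 7 of 8 lower (among them Csf1r, C1qa, Lyz2 and Mrc1). Fibroblast markers summed to 3125 to 3485 CPM in mutant hearts and 2735 to 3101 CPM in control hearts, with 3 of 9 higher (Tcf21, Pdgfra and Dcn). Atrial markers summed to 37.7 to 45.2 CPM in mutant hearts and 27.4 to 29.4 CPM in control hearts. Of 5 tested, 3 were higher (Dkk3, Bmp10 and Myl4) and 1 lower (Stard10). The difference in the sum lay in Dkk3, which averaged 24.3 CPM in mutant hearts and 11.5 CPM in control hearts. Bmp10 was near 0, at 0.462 CPM in mutant hearts and 0.0118 CPM in control hearts. Myl4 lost its call in 3 and Stard10 in 6 of the 14 alternative settings. The atrial genes Myl7 and Sln, below the filter on low counts, averaged 0.142 and 0.0193 CPM in mutant hearts, and 0.222 and 0.0542 CPM in control hearts. Both were near 0 although the tissue is labelled heart, and whether it held atria was not tested. The share passing edgeR's test was 90.9% of heart muscle, 62.5% of endothelial, 87.5% of macrophage and 33.3% of fibroblast markers. It was 80.0% of the 5 tested atrial markers and 37.5% of all genes tested. These counts rest on the TMM scale. When only library totals were used, 0 of 8 endothelial markers and 5 of 8 macrophage markers were lower. Then 9 of 9 fibroblast markers were higher, and 4 of 5 atrial markers were higher and 0 lower. On that scale 50.3% of all genes were higher and 8.11% lower. Fewer cells of a type, less RNA per cell and changed expression of the markers themselves cannot be told apart in bulk tissue. The part of these shifts in the results was not tested.

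The 40 genes moved in both directions. In mutant hearts 11 genes rose, 13 genes fell and the other 16 were not called (edgeR's quasi-likelihood test, Benjamini-Hochberg adjusted p under 0.05 over all 14877 genes tested). The 24 called genes were 60.0% of the 40, where 37.5% of all genes tested were called. The 40 were chosen with earlier results of these data known, so this and the comparisons with all genes that follow are description only. Among all genes 18.1% were called higher and 19.5% lower. With a change of 1.5-fold or more, 9 of the 40 rose and 9 fell, where 8.62% of all genes rose and 7.64% fell by that much. The groups did not overlap for 26 of the 40, where they did not overlap for 49.8% of all genes. The median log2 fold change of the 40 was 0.03, against -0.00 over all genes, and the median size of the change was 0.47, against 0.23 over all genes.

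The split depended on how libraries were scaled. TMM holds the typical gene at no change. With library totals only, the median of all genes moved to 0.28 and that of the 40 genes to 0.32. Then 23 of the 40 were higher and 9 lower, with 50.3% of all genes higher and 8.11% lower. Of the 24 called genes 20 kept their call in all 14 alternative settings and none changed direction. Actc1, Mypn, Nebl and Tmod1 lost theirs in at least 1 setting.

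**Figure D1:**
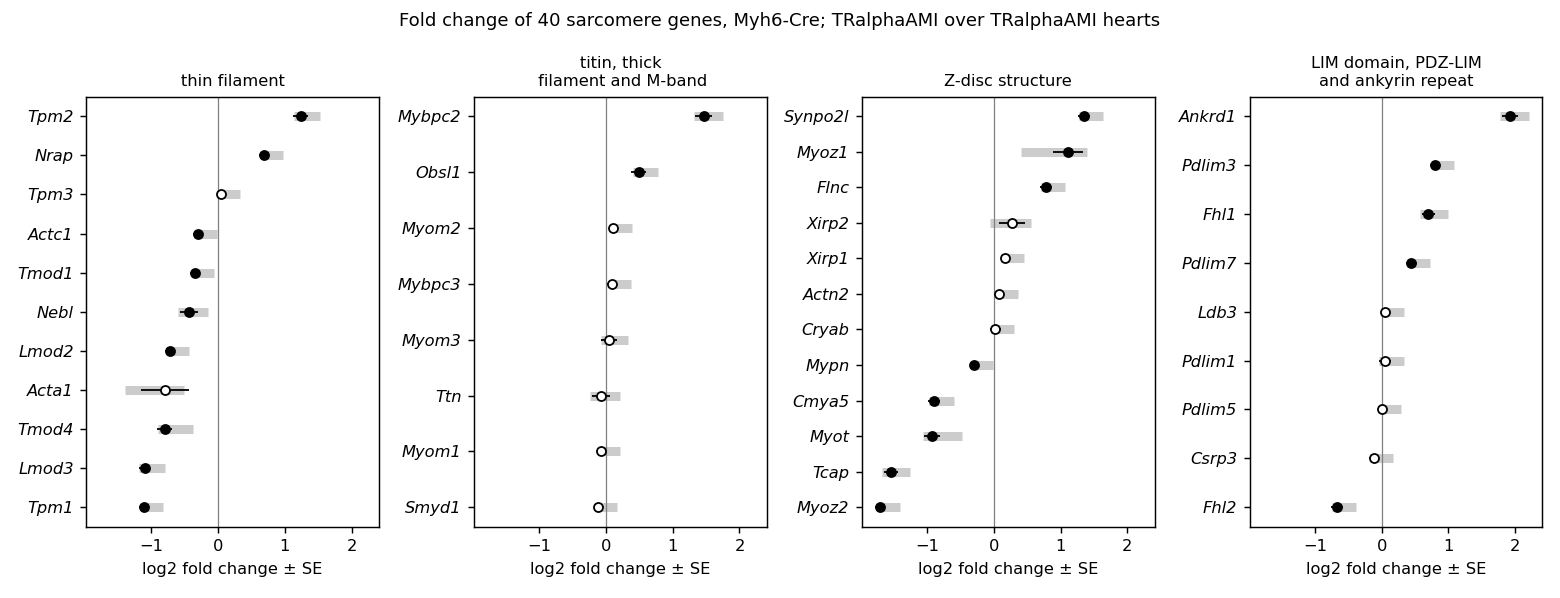
Log2 fold change (Myh6-Cre; TRalphaAMI over TRalphaAMI hearts) with its SE for the 40 genes, in a panel for each role. Filled points passed the edgeR test, open points did not, and grey bars span the values in the 14 alternative settings. Ankrd1 lies farthest to the right at 1.93 and Myoz2 farthest to the left at -1.70.

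Among thin filament genes, 2 of 11 rose, 7 fell and 2 did not pass, with a median log2 fold change of -0.44. When only library totals were used, 3 were higher and 4 lower. Tropomyosin genes moved in opposite directions. Tpm1 (ENSMUSG00000032366, mm10 chr9:67022590-67049406, minus strand) encodes alpha-tropomyosin, the main tropomyosin of the heart. It had 4989, 4594 and 5183 CPM in mutant hearts, against 10233, 10953 and 10773 CPM in control hearts. Every mutant heart lay below every control heart, and the fall was 2.16-fold (log2 fold change -1.11 ± 0.07 SE; edgeR adjusted p = 3.95e-06). Tpm2 (ENSMUSG00000028464, chr4:43514711-43523765, minus strand) encodes beta-tropomyosin, known from skeletal and smooth muscle. It had 39.6, 51.0 and 45.03 CPM in mutant hearts, against 17.5, 18.1 and 22.0 CPM in control hearts. The groups did not overlap, and the level was 2.36-fold higher in mutant hearts (log2 fold change 1.24 ± 0.11 SE; edgeR adjusted p = 3.11e-05). Tpm3, a tropomyosin of slow skeletal muscle and nonmuscle cells, had 30.7, 33.2 and 31.8 CPM in mutant hearts, against 31.3, 29.7 and 31.8 CPM in control hearts. These groups overlapped (log2 fold change 0.04; edgeR adjusted p = 0.621). Its count is uncertain, since 23.2% of the 50-base windows of its transcripts also occur in another gene. Tpm3-rs7 shares more of these windows than any other gene.

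The actins changed less, or not beyond the spread between hearts. Actc1, cardiac actin, had 7219.6, 7364 and 7732 CPM in mutant hearts, against 8316, 10014 and 9148 CPM in control hearts. The groups did not overlap, and the fall was 1.23-fold (log2 fold change -0.30 ± 0.08 SE; edgeR adjusted p = 0.0163). With library totals only, the log2 fold change of Actc1 was -0.01 and the call was lost, and it was also lost without mutant replicate 1 (-0.28). Acta1, skeletal actin, known from the fetal and the overloaded heart, had 7.28, 18.8 and 7.36 CPM in mutant hearts, against 23.0, 22.7 and 12.2 CPM in control hearts. Mutant heart 2 lay among the control hearts, and the log2 fold change of -0.79 ± 0.37 (SE) did not pass (edgeR adjusted p = 0.118). Acta1 was called lower without mutant replicate 2 (-1.40) and without control replicate 3 (-1.04).

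Among the 40 genes, the leiomodins and tropomodulins, which set filament length and cap the pointed end, fell: Lmod2, Lmod3, Tmod1 and Tmod4. Outside the 40, their relatives Tmod2, Tmod3 and Lmod1 had log2 fold changes of -0.29, -0.14 and -0.15 and did not pass (edgeR adjusted p = 0.216, 0.336 and 0.681). Lmod2 encodes the cardiac leiomodin, which lengthens thin filaments at the pointed end. It had 264, 278 and 232.5 CPM in mutant hearts, against 424, 438.5 and 415 CPM in control hearts, with no overlap (1.65-fold lower; edgeR adjusted p = 7.11e-05). Lmod3, a leiomodin best known from skeletal muscle, had 54.9, 57.2 and 58.3 CPM in mutant hearts, against 121, 136 and 108 CPM in control hearts. Its mutant hearts lay close together, far below the lowest control heart, and the fall was 2.14-fold (log2 fold change -1.10 ± 0.09 SE; edgeR adjusted p = 1.16e-05). Tmod1, the tropomodulin that caps pointed ends in the heart, had 202.5, 212 and 222 CPM in mutant hearts, against 264, 291 and 257 CPM in control hearts (log2 fold change -0.35; edgeR adjusted p = 0.00307). The groups of Tmod1 did not overlap, but its call was lost with library totals only. Exons of Tstd2 on the opposite strand overlap 32.6% of the exon bases of Tmod1, and with a kit that does not mark strand their reads cannot be told apart. Tmod4, a skeletal muscle tropomodulin, had 3.51, 3.35 and 4.05 CPM in mutant hearts, against 6.12, 5.98 and 6.94 CPM in control hearts. It was low in both groups, which did not overlap (1.74-fold lower; edgeR adjusted p = 5.51e-04).

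The nebulin relatives moved apart. Nrap, an actin scaffold of myofibril assembly and the intercalated disc, had 619.8, 639.9 and 660.2 CPM in mutant hearts, against 391.8, 426 and 378 CPM in control hearts. No heart overlapped between groups, and the log2 fold change was 0.68 ± 0.07 (SE; edgeR adjusted p = 4.85e-05). Exons of Habp2 on the opposite strand overlap 6.83% of the exon bases of Nrap. Nebl, nebulette, which links thin filaments to the Z-disc, had 533, 391.7 and 385 CPM in mutant hearts, against 628, 628 and 517 CPM in control hearts. Mutant heart 1 lay above control heart 3, so the groups overlapped (log2 fold change -0.44 ± 0.13 SE; edgeR adjusted p = 0.0257). Nebl lost its call in 8 of the 14 alternatives: with library totals only and on the 3 RPKM scales, without control replicate 1 or 2, and without mutant replicate 2 or 3.

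Of 8 genes of titin, the thick filament and the M-band, 2 rose, 0 fell and 6 did not pass, with a median log2 fold change of 0.07. Scaled by totals alone, 6 were higher and 0 lower. Ttn, titin, had 6778, 4941 and 5131 CPM in mutant hearts, against 6289, 6555 and 4909 CPM in control hearts. The groups spanned much the same range (log2 fold change -0.08 ± 0.14 SE; edgeR adjusted p = 0.710). Counts per gene do not separate splice forms, which matter for Ttn, Tpm1 and Ldb3. Mybpc3, cardiac myosin binding protein C, had 3977, 4298 and 4353 CPM in mutant hearts, against 3873, 4233 and 3743 CPM in control hearts, which overlapped (edgeR adjusted p = 0.361). Mybpc2 (ENSMUSG00000038670, chr7:44501699-44524656, minus strand) is its fast skeletal muscle relative. It had 30.4, 37.2 and 26.8 CPM in mutant hearts, against 10.5, 13.01 and 10.6 CPM in control hearts. All 3 mutant hearts were above all control hearts, and the rise was 2.76-fold (log2 fold change 1.46 ± 0.13 SE; edgeR adjusted p = 2.80e-05). Obsl1, an obscurin relative that binds titin and myomesin, rose 1.40-fold (log2 fold change 0.49 ± 0.11 SE; edgeR adjusted p = 0.00614).

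The myomesins, which cross-link thick filaments, did not pass. Myom1 had 1792, 1890.3 and 1827 CPM in mutant hearts, against 1872, 1992 and 1949 CPM in control hearts (log2 fold change -0.08). Myom2, the myomesin of fast fibres and adult heart, had 2807, 2744 and 2657 CPM in mutant hearts, against 2469.9, 2631 and 2522 CPM in control hearts (log2 fold change 0.11; edgeR adjusted p = 0.216). Myom3 was low, with 4.30, 4.49 and 5.34 CPM in mutant hearts, against 4.361, 4.367 and 5.003 CPM in control hearts. The groups did not overlap for Myom2 and overlapped for Myom1 and Myom3. Smyd1, a muscle methyltransferase needed for myofibril assembly, had a log2 fold change of -0.12 (edgeR adjusted p = 0.139).

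Of 12 structural Z-disc genes, 3 rose, 5 fell and 4 did not pass, with a median log2 fold change of 0.05. Scaled by totals alone, 7 were higher and 4 lower. The deepest falls among the 40 genes were in Myoz2 and Tcap. Myoz2 (ENSMUSG00000028116, chr3:123006206-123035015, minus strand) encodes calsarcin-1, which ties calcineurin to alpha-actinin. It had 403, 378 and 357 CPM in mutant hearts, against 1162, 1229.9 and 1301 CPM in control hearts. The highest mutant heart was far below the lowest control heart, and the fall was 3.25-fold (log2 fold change -1.70 ± 0.07 SE; edgeR adjusted p = 4.17e-07). Tcap (ENSMUSG00000007877, chr11:98383811-98384953, plus strand) encodes telethonin, which caps the end of titin at the Z-disc. It had 141, 161.5 and 190.2 CPM in mutant hearts, against 437, 503 and 496 CPM in control hearts, with no overlap. The fall was 2.91-fold (log2 fold change -1.54 ± 0.11 SE; edgeR adjusted p = 6.09e-06).

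Myot and Cmya5 fell as well. Myot, myotilin, an actin and filamin binding protein, had 5.29, 3.94 and 4.25 CPM in mutant hearts, against 8.52, 8.47 and 8.64 CPM in control hearts (1.902-fold lower; edgeR adjusted p = 2.57e-04). Cmya5, myospryn, had 344.5, 284 and 311.5 CPM in mutant hearts, against 625, 594 and 529.6 CPM in control hearts (1.86-fold lower; edgeR adjusted p = 5.39e-05). Neither gene overlapped between groups. Exons of A630019I02Rik on the opposite strand overlap 21.7% of the exon bases of Cmya5. Mypn, myopalladin, which binds alpha-actinin and titin, fell by 0.29 on the log2 scale (edgeR adjusted p = 0.00388), a call lost with library totals only and on the RPKM scales.

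Synpo2l, Flnc and Myoz1 rose. Synpo2l (ENSMUSG00000039376, chr14:20658946-20668354, minus strand) encodes an actin binding protein of the Z-disc. It had 523, 539 and 501 CPM in mutant hearts, against 182, 232 and 197.5 CPM in control hearts. The groups were well apart, and the rise was 2.55-fold (log2 fold change 1.35 ± 0.09 SE; edgeR adjusted p = 4.80e-06). Flnc, muscle filamin, which cross-links actin at the Z-disc, had 423, 436 and 468 CPM in mutant hearts, against 230.4, 291 and 253 CPM in control hearts, with no overlap (1.71-fold higher; edgeR adjusted p = 1.28e-04). Myoz1, the calsarcin of fast skeletal muscle, is the least abundant of the 40 genes. It had 0.750, 0.866 and 0.718 CPM in mutant hearts, against 0.332, 0.320 and 0.427 CPM in control hearts (log2 fold change 1.11 ± 0.23 SE; edgeR adjusted p = 0.00389). Its groups did not overlap. Myoz1 and Synpo2l are neighbours on chromosome 14, on the same strand with 2405 bases between them.

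The other Z-disc genes did not pass. Actn2, alpha-actinin, the main cross-linker, had a log2 fold change of 0.08 (edgeR adjusted p = 0.386). Cryab, a small heat shock protein of the Z-disc, had one of 0.02 (edgeR adjusted p = 0.857). Xirp1 and Xirp2 encode actin binding Xin proteins of the intercalated disc. Xirp1 had a log2 fold change of 0.17 (edgeR adjusted p = 0.0758). Xirp2 had 330.1, 187 and 189 CPM in mutant hearts, against 200.4, 214 and 171 CPM in control hearts, and did not pass (edgeR adjusted p = 0.318). Only mutant heart 1 stood above the control hearts, and without it the log2 fold change of Xirp2 was -0.05.

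Of 9 LIM domain, PDZ-LIM and ankyrin repeat genes, 4 rose, 1 fell and 4 did not pass, with a median log2 fold change of 0.05. When only library totals were used, 7 were higher and 1 lower. Ankrd1 had the largest rise of the 40. It encodes the cardiac ankyrin repeat protein, which binds titin and is known to be induced in stretched and overloaded heart muscle (ENSMUSG00000024803, chr19:36111961-36120099, minus strand). It had 2849, 2131 and 2179 CPM in mutant hearts, against 576, 659 and 648 CPM in control hearts. The lowest mutant heart was far above the highest control heart. The rise was 3.80-fold (log2 fold change 1.93 ± 0.12 SE; edgeR adjusted p = 2.69e-06).

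The four-and-a-half LIM genes moved in opposite directions. Fhl1 (ENSMUSG00000023092, chrX:56731787-56793346, plus strand), known from hypertrophic signalling at titin, had 187, 241 and 193 CPM in mutant hearts, against 131, 128 and 123.5 CPM in control hearts. Mutant heart 2 was the highest, the groups did not overlap, and the log2 fold change was 0.70 ± 0.09 (SE; edgeR adjusted p = 3.47e-04). Fhl2 (ENSMUSG00000008136, chr1:43123074-43196984, minus strand), a titin binding cofactor of the adult heart, had 796, 900.2 and 789 CPM in mutant hearts, against 1305, 1459 and 1175.5 CPM in control hearts. Its groups did not overlap, and the log2 fold change was -0.66 ± 0.09 (SE; edgeR adjusted p = 3.91e-04). Among PDZ-LIM genes, which tether signalling proteins to alpha-actinin, Pdlim3 had 29.9, 29.5 and 27.3 CPM in mutant hearts, against 17.7, 15.7 and 16.4 CPM in control hearts. Without overlap, it was 1.74-fold higher in mutant hearts (edgeR adjusted p = 3.14e-05). Pdlim7 rose 1.36-fold (edgeR adjusted p = 0.00182). Pdlim1, Pdlim5, Ldb3 (cypher) and Csrp3 (muscle LIM protein) had log2 fold changes of 0.05, 0.01, 0.05 and -0.12 and did not pass (edgeR adjusted p = 0.669, 0.920, 0.553 and 0.230).

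**Figure D2:**
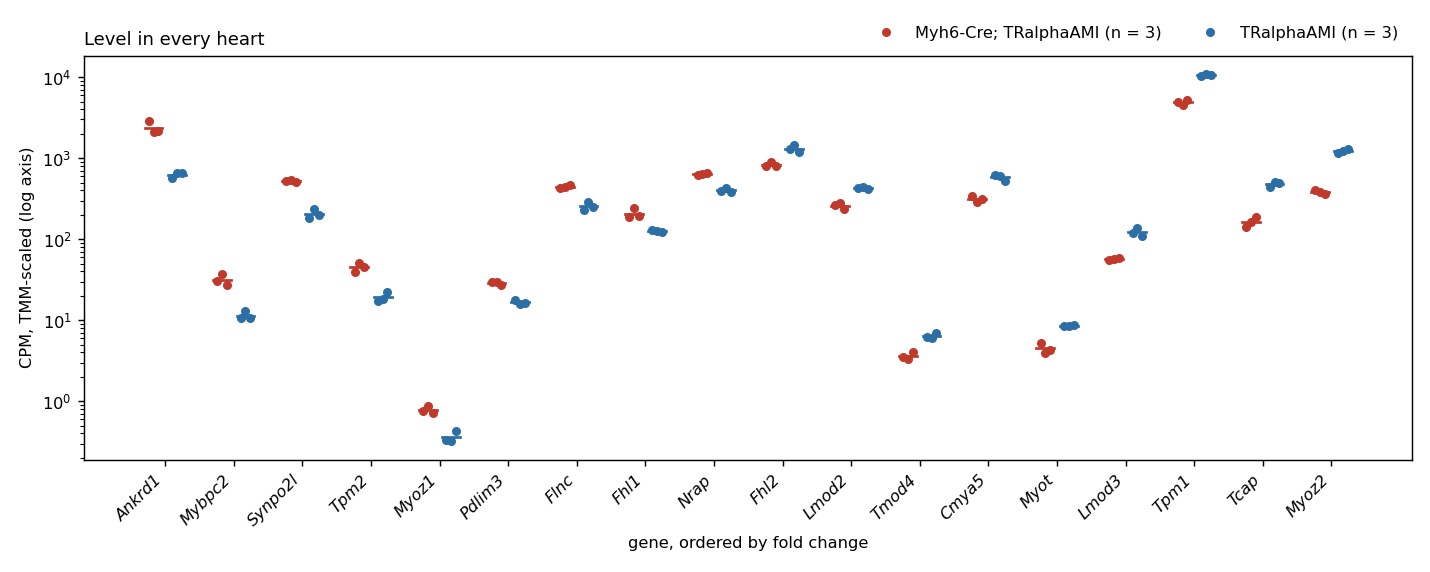
CPM (TMM-scaled, log axis) in each heart for the 18 genes called with a change of 1.5-fold or more, ordered by fold change, with a bar at the group mean. In all 18 the 3 Myh6-Cre; TRalphaAMI hearts and the 3 TRalphaAMI hearts do not overlap. The 18 were picked by their change in these same hearts.

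Start site sequences of 4 of the genes with changed levels are shown, each with a motif of a factor known from muscle promoters in capitals. They are RefSeq sequences of build GRCm38.p6, from 250 bases before to 50 bases after a start site, written along the gene's strand. Ankrd1 (chr19:36119795-36120094, minus strand) holds the TEAD motif CATTCC, also called MCAT, on its opposite strand as GGAATG, with first bases at -210 and -123. Fhl1 (chrX:56779433-56779732, plus strand, 1 of its 2 start windows) holds a CArG box, the motif of serum response factor, at -102. Fhl2 (chr1:43196712-43197011, minus strand) holds a CArG box at -96. Myoz2 (chr3:123034938-123035237, minus strand) holds a MEF2 site at -33.
Ankrd1: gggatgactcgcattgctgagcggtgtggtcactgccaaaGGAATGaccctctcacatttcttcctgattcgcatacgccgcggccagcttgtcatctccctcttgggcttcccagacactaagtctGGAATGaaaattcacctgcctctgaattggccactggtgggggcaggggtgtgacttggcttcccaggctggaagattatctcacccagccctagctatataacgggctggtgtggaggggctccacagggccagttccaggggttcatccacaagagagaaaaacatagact
Fhl1: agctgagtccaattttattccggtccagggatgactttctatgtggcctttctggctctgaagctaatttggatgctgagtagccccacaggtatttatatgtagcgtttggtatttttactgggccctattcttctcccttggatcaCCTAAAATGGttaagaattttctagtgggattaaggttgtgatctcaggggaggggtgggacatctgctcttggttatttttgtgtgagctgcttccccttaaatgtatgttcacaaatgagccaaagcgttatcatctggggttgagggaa
Fhl2: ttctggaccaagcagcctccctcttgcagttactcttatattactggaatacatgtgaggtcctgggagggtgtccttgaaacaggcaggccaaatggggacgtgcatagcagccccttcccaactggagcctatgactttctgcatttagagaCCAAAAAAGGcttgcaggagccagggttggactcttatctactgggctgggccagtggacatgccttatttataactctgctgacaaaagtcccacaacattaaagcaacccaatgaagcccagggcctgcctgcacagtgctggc
Myoz2: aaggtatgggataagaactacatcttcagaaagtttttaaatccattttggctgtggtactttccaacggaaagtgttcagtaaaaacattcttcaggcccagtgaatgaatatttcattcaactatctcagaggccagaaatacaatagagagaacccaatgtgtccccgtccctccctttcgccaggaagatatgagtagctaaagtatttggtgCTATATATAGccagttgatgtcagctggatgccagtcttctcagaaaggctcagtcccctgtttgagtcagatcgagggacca

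Windows of this length were given for 33 of the 40 genes and searched on both strands. A CArG box was found in 7 of the 33 and in 1.81% of all 27025 genes with a window. A MEF2 site was found in 7 of the 33 and in 3.70% of all genes. CATTCC was found in 10 of the 33 and in 16.6% of all genes, and TATAAA in 7 of the 33 and in 15.7% of all genes. AGGTCA, the half-site of thyroid hormone receptors, was found in 5 of the 33 and in 18.1% of all genes, and its direct repeat with a 4-letter spacer in 0 of the 33 and in 0.0148% of all genes. A match describes letters only, and motifs may overlap one another. The 7 genes with a CArG box held 1 that rose (Fhl1), 3 that fell (Actc1, Fhl2, Nebl) and 3 not called. The 7 with a MEF2 site held 1 that rose (Synpo2l), 2 that fell (Fhl2, Myoz2) and 4 not called. The 10 with CATTCC held 4 that rose, 4 that fell and 2 not called.

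Shares within families of related proteins do not depend on library scaling. They were taken from the deposited RPKM, reads divided by gene length and library total, which allows levels to be compared between genes. With 3 hearts against 3, the exact two-sided permutation test cannot go below p = 0.1, and 7 families were compared. Of the RPKM of Tpm1, Tpm2 and Tpm3, Tpm1 made up 97.3% ± 0.410 in mutant hearts and 99.3% ± 0.0558 in control hearts (SD, n = 3 each, exact permutation p = 0.1, adjusted 0.117). Tpm2 made up 1.73%, 2.40% and 1.89% in mutant hearts, against 0.378%, 0.365% and 0.451% in control hearts, and Tpm3 averaged 0.675% in mutant hearts and 0.308% in control hearts. Thus the main cardiac form still made up nearly all of the family in every heart.

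In 5 of the other 6 families the share did not overlap between groups, and none could pass the threshold in a test whose smallest p is 0.1. Mybpc2 was 0.856% ± 0.143 of the myosin binding protein C pair in mutant hearts and 0.331% ± 0.0210 in control hearts (SD, n = 3 each; exact permutation p = 0.1, adjusted 0.117). Myoz1 was 0.541% ± 0.0568 of the calsarcin pair in mutant hearts and 0.0770% ± 0.00916 in control hearts (SD, n = 3 each; exact permutation p = 0.1, adjusted 0.117). Both skeletal forms thus remained below 1% in every heart. Lmod3 was 16.5% ± 1.57 of the leiomodin pair in mutant hearts and 20.3% ± 1.43 in control hearts (SD, n = 3 each; exact permutation p = 0.1, adjusted 0.117). Tmod4 was 3.79% ± 0.261 of the tropomodulin pair in mutant hearts and 5.13% ± 0.666 in control hearts (SD, n = 3 each; exact permutation p = 0.1, adjusted 0.117). In the leiomodin and tropomodulin pairs the skeletal muscle form took a smaller share in mutant hearts than in control hearts. Tmod3, not part of the tropomodulin pair, averaged 90.9 CPM in mutant hearts and 100.1 CPM in control hearts. Myom2 was 48.8% ± 1.09 of the myomesins in mutant hearts and 45.6% ± 0.293 in control hearts (SD, n = 3 each; exact permutation p = 0.1, adjusted 0.117). Acta1 was 0.106%, 0.268% and 0.1002% of the 2 actins in mutant hearts, against 0.291%, 0.238% and 0.140% in control hearts, which overlapped (exact permutation p = 0.3).

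**Figure D3:**
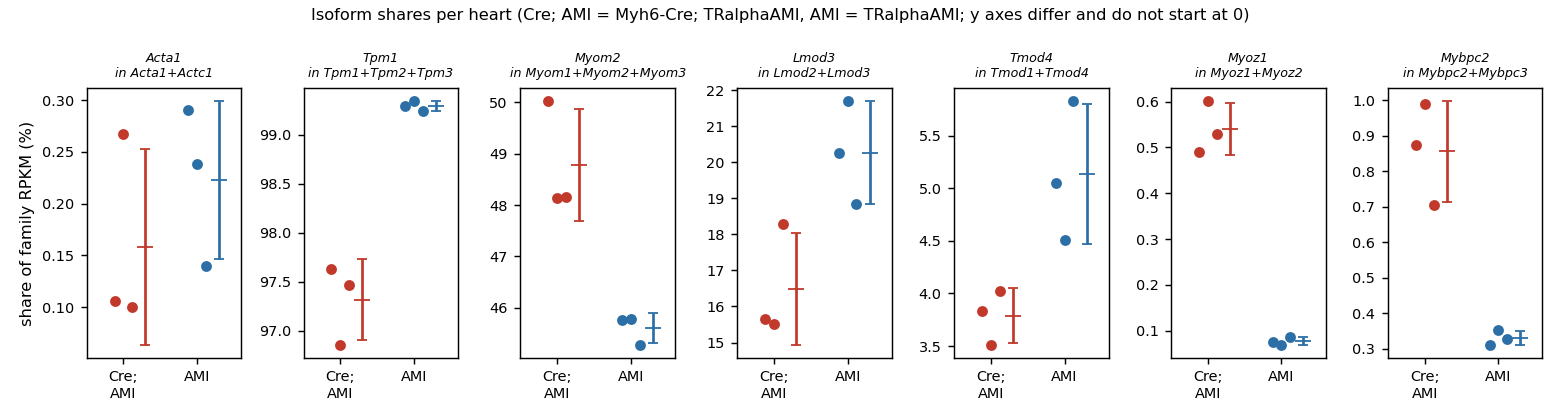
Share of family RPKM (%) in each heart, with mean and SD, for 1 gene of each of 7 families, Myh6-Cre; TRalphaAMI hearts left and TRalphaAMI hearts right. The groups overlap only for Acta1; the axes differ and do not start at 0.

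Genes of the 40 described above as skeletal muscle forms went both ways: Tpm2, Mybpc2 and Myoz1 rose, Lmod3 and Tmod4 fell, and Acta1 and Tpm3 did not pass. Skeletal muscle markers were measured beside them. Of 7 tested, 2 were higher (Myh8 and Casq1), 1 lower (Tnni2) and 4 not called. The called share of these markers was 42.9%, near the 37.5% over all genes tested. Their sum was 14.6 to 18.5 CPM in mutant hearts and 11.27 to 13.02 CPM in control hearts, but 4.32 to 4.90 CPM in mutant hearts and 4.51 to 5.35 CPM in control hearts without Casq1, which heart muscle also expresses. The defining adult myosins Myh1, Myh2 and Myh4 averaged 0.0574, 0.0955 and 0.159 CPM in mutant hearts, and 0.151, 0.197 and 0.273 CPM in control hearts, near 0 in both groups. Pvalb and Myod1 were not analysed here. For Tpm2, which smooth muscle also expresses, 10 smooth muscle and pericyte markers were measured. They summed to 2497 to 2525 CPM in mutant hearts and 2673 to 2868 CPM in control hearts. Of the 10, 2 were higher and 3 lower, and 3 higher and 0 lower when only library totals were used. The most abundant of the 10, Rgs5 and Abcc9, were both lower. Rgs5 averaged 1101 CPM in mutant hearts and 1323 CPM in control hearts. Abcc9 averaged 583 CPM in mutant hearts and 690 CPM in control hearts. A sum without these genes was not taken, so the lower sum does not show that smooth muscle markers fell as a set. Cnn1, calponin, was 3.50-fold higher in mutant hearts (edgeR adjusted p = 0.00123) and Smtn, smoothelin, 1.23-fold higher (edgeR adjusted p = 0.0370). Kcnj8 and Abcc9, known from pericytes, were 1.204-fold and 1.184-fold lower. Smtn, Kcnj8 and Abcc9 lost their calls in 4, 4 and 7 of the 14 alternatives. Myh11 averaged 32.0 CPM in mutant hearts and 38.8 CPM in control hearts (edgeR adjusted p = 0.280), and Acta2 averaged 252.5 CPM in mutant hearts and 202 CPM in control hearts (edgeR adjusted p = 0.0533).

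Per length of transcript, Actc1 was the most abundant of the 40 genes in both groups, with 5044 ± 271 RPKM in mutant hearts and 5100.4 ± 479 RPKM in control hearts (SD, n = 3 each). Ankrd1 ranked 2 of the 40 in mutant hearts and 10 in control hearts, with 1479.9 ± 222.5 RPKM in mutant hearts and 320.4 ± 23.1 RPKM in control hearts (SD, n = 3 each). Tpm1 ranked 4 in mutant hearts and 2 in control hearts, with 832.5 ± 56.8 RPKM in mutant hearts and 1480.01 ± 53.4 RPKM in control hearts (SD, n = 3 each). RPKM divides by 1 length for each gene, so these ranks depend on the length used for genes with several splice forms, such as Tpm1, and that was not tested. Tcap ranked 12 in mutant hearts and 6 in control hearts, Myoz2 ranked 17 in mutant hearts and 9 in control hearts, and Synpo2l ranked 16 in mutant hearts and 23 in control hearts.

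**Figure D4:**
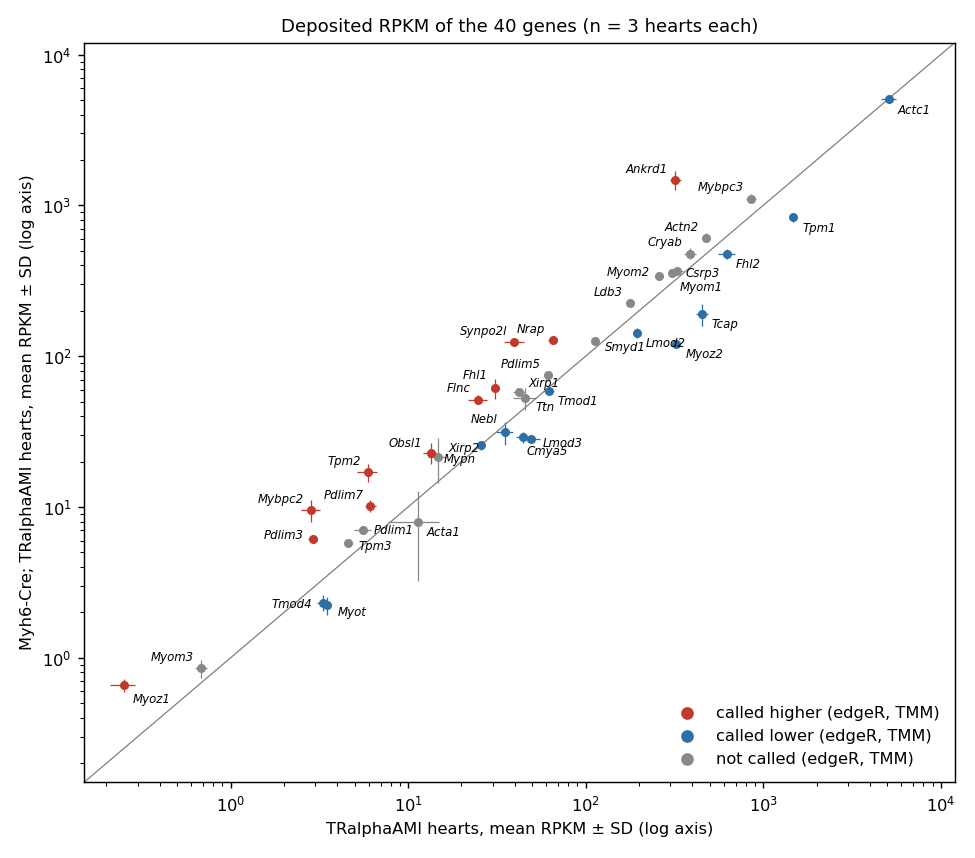
Mean RPKM ± SD of the 40 genes in Myh6-Cre; TRalphaAMI hearts (vertical, log axis) and in TRalphaAMI hearts (horizontal, log axis), n = 3 each, coloured by the edgeR call, with the line of equal RPKM. Ankrd1 lies farthest above the line among abundant genes, and Tpm1, Tcap and Myoz2 lie below it; RPKM is not TMM-scaled, so most genes not called sit slightly above the line.

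The summed RPKM of the 40 genes was 12740 ± 329 in mutant hearts and 12001 ± 798 in control hearts (SD, n = 3 each), a ratio of 1.06 with overlapping groups (exact permutation p = 0.3). As TMM-scaled CPM the sum was 40725 ± 1135 in mutant hearts and 47706 ± 2516 in control hearts (SD, n = 3 each), a ratio of 0.854 without overlap (exact permutation p = 0.1). The direction of the sum thus depended on the scale.

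Mutant hearts differed most among themselves for Acta1, Xirp2, Nebl and Ttn. The coefficient of variation among mutant hearts was 59.4% for Acta1, 34.8% for Xirp2, 19.2% for Nebl and 18.0% for Ttn. In control hearts it was 32.0% for Acta1, 11.3% for Xirp2, 10.9% for Nebl and 14.9% for Ttn. Mutant heart 1 was the highest of its group for Ttn, Nebl and Xirp2, and control heart 3 the lowest of its group for all 4 genes.

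**Figure D5:**
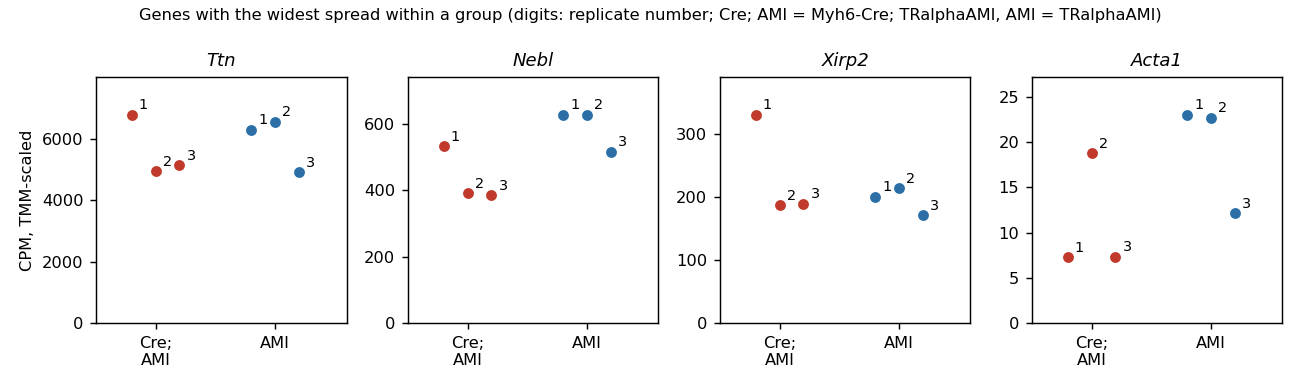
CPM (TMM-scaled) of Ttn, Nebl, Xirp2 and Acta1 in each heart, Myh6-Cre; TRalphaAMI left and TRalphaAMI right, with replicate numbers. Mutant heart 1 is the highest of its group for Ttn, Nebl and Xirp2, mutant heart 2 for Acta1, and the groups overlap for all 4 genes.

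Among 55 tested sarcomere genes outside the 40, 15 rose, 10 fell and 30 did not pass, with a median log2 fold change of 0.00. The called share was 45.5%, where 37.5% of all genes tested were called. Of 17 other thin filament genes, 1 rose and 2 fell. Cap2, which recycles actin, rose by 0.31 on the log2 scale (edgeR adjusted p = 0.00311). Fhod3, a formin needed for cardiac thin filaments, fell by 0.38 (edgeR adjusted p = 0.00113), and Capzb, a barbed end capping subunit, fell by 0.32 (edgeR adjusted p = 0.00275). Fhod3 and Capzb lost their calls with library totals only and on the RPKM scales. Of 19 other Z-disc genes, 8 rose and 5 fell. Synpo2, a relative of Synpo2l, had 47.5, 44.1 and 43.0 CPM in mutant hearts, against 123.5, 127.5 and 134.5 CPM in control hearts. It fell 2.86-fold (edgeR adjusted p = 4.17e-07), the opposite of Synpo2l, and the groups did not overlap. Pdlim4, a PDZ-LIM gene, averaged 5.38 CPM in mutant hearts and 13.7 CPM in control hearts (2.54-fold lower; edgeR adjusted p = 1.19e-05). Csrp1, a relative of Csrp3 found in smooth muscle, averaged 86.1 CPM in mutant hearts and 44.98 CPM in control hearts (1.91-fold higher; edgeR adjusted p = 3.17e-05). Palld, palladin, a relative of Mypn, rose by 0.48 on the log2 scale (edgeR adjusted p = 3.30e-04). Of 5 tested M-band and thick filament partners, 1 rose, Alpk3, a kinase-like protein of the M-band (log2 fold change 0.30; edgeR adjusted p = 0.00243).

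Of 14 chaperones of sarcomere proteins, 5 rose and 3 fell, a called share of 57.1% where it was 37.5% over all genes tested. Hspb8, a small heat shock protein of the Z-disc's protein turnover, had 105.0, 88.4 and 89.95 CPM in mutant hearts, against 296.9, 313.3 and 319.3 CPM in control hearts. It fell 3.28-fold with no overlap (edgeR adjusted p = 5.16e-07). Hspb6 averaged 120.2 CPM in mutant hearts and 270.2 CPM in control hearts (2.25-fold lower; edgeR adjusted p = 4.80e-05). Hspb1 averaged 43.9 CPM in mutant hearts and 27.5 CPM in control hearts (1.597-fold higher; edgeR adjusted p = 3.78e-05). Hsp90aa1, a chaperone of myosin folding, averaged 38.0 CPM in mutant hearts and 20.7 CPM in control hearts (1.84-fold higher; edgeR adjusted p = 4.48e-05). Cryab, the small heat shock protein among the 40, did not pass, and Hspb2, whose exons on the opposite strand overlap those of Cryab, fell by 0.50 on the log2 scale (edgeR adjusted p = 0.00279).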

How the data were processed

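Counts and RPKM were deposited for hearts of 3 mutant and 3 control pups. The deposited counts are whole numbers of reads per Ensembl gene, and the RPKM values were made by the authors from counts and a gene length. The submitters' processing notes name the mm10 build and the tools STAR 2.5.2b, featureCounts 1.5.1 and cutadapt 1.9, without saying what each did. For annotation release, strand setting and multi-mapping reads, the sources used here give nothing. Per the labels' protocols the kit was TruSeq RNA v2, which does not mark strand, so reads of overlapping antisense genes cannot be told apart. Symbols came from GENCODE M21 and matched 20081 of 20121 genes.

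Counts were tested with edgeR 4.0.16 (R 4.3.3; TMM, filterByExpr, quasi-likelihood F test, Benjamini-Hochberg over 14877 genes, threshold 0.05). Scripts were tested on simulated data. The p-values reflect only the variation among these 6 hearts. Alternatives were DESeq2 1.42.0, other scalings and filters, limma 3.58.1 on log2(RPKM + 0.1) and log2(RPKM + 1), a replicate block and leaving out each heart. Family shares were compared with exact permutation tests. Each gene with a call and a 1.5-fold change, and each family member, is given per heart. From every other list up to 4 called genes with the smallest adjusted p are named, and some further genes are given beside them. The members, roles and lists were chosen with earlier results of these data known. The total of counts per library sets the precision, and the least abundant of the 40 genes had 173 counts over all 6 hearts.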

Additional observations from a re-analysis of the deposited data

How the results depend on the processing

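DESeq2, RLE size factors and no filter left the counts of called members at 11 higher and 13 lower. Scaling changed them. With library totals only, log2(RPKM + 0.1), log2(RPKM + 1) and log2(RPKM + 0.1) without filter, 23, 21, 22 and 21 members were higher, with 7479, 6892, 7072 and 6718 of all genes higher and 1207, 1124, 1150 and 1133 lower. The members' median log2 fold change was then 0.32, 0.30, 0.28 and 0.30. These settings hold no composition factor. With library totals only, 29 other sarcomere genes were higher and 5 lower, and with log2(RPKM + 0.1) 27 were higher and 4 lower. Of the 16 uncalled members, 11 gained a call in at least 1 alternative in their own direction. On these 4 scales other uncalled members turned positive, Myom1 being called higher on all 4 and Smyd1 with library totals only and log2(RPKM + 1): Csrp3 to 0.17, 0.17, 0.17 and 0.17, Myom1 to 0.21, 0.21, 0.21 and 0.21, Smyd1 to 0.16, 0.16, 0.16 and 0.16, and Ttn to 0.21, 0.20, 0.20 and 0.20. Leaving out 1 heart gave 11 members higher, 12 to 14 lower, medians of 0.0049 to 0.0143 and summed RPKM ratios of 1.03 (without control replicate 1) to 1.10 (without control replicate 2). Uncalled members that changed sign were Cryab (-0.0357 to 0.0775, negative in 3 of 6 fits), Pdlim5 (-0.0156 to 0.0494, negative in 3), Myom3 (-0.0668 to 0.1095), Pdlim1 (-0.0365 to 0.0985), Xirp2 (-0.0521 to 0.4094) and Ttn (-0.2322 to 0.008, positive without control replicate 2 and without mutant replicate 2); the cause was not tested. As TMM-scaled CPM the summed ratio was 0.854. From counts not divided by length, share differences (mutant minus control, percentage points) were -1.08 for Tpm1, -0.617 for Tmod4 and 0.176 for Myoz1, by construction of the scale. Whether replicate numbers pair the hearts was not settled. Deviations of same-numbered hearts correlated at 0.155, -0.0502 and 0.0956. Mutant hearts 1 and 3 correlated best with the control heart of their number, mutant heart 2 with control heart 3. With the replicate block 12 members were higher and 14 lower, Xirp1 (0.17, edgeR adjusted p = 0.0400) and Acta1 (-0.86, edgeR adjusted p = 0.0172) being added, with 3090 of all genes higher and 3229 lower. Depth limits Myoz1 and Myom3 most.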

Other observations

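Of 14 tested regulators of muscle gene transcription, 5 were higher, 1 lower and 8 not called in mutant hearts, and 12 were higher and 0 lower when only library totals were used. The called share was 42.9%, near the 37.5% over all genes tested. With library totals only, 50.3% of all genes were higher and 8.11% lower. Gata6, a zinc finger factor of heart development, had 174.8, 186.4 and 187.6 CPM in mutant hearts, against 113.3, 117.0 and 131.3 CPM in control hearts, with no overlap (1.52-fold higher; edgeR adjusted p = 1.49e-04). Gata4, its relative in the heart, averaged 173 ± 15.9 CPM in mutant hearts and 137 ± 7.58 CPM in control hearts (SD, n = 3 each; edgeR adjusted p = 0.00827). Tead1, the factor that binds the CATTCC motif, averaged 310.3 ± 7.86 CPM in mutant hearts and 260.6 ± 2.73 CPM in control hearts (SD, n = 3 each; edgeR adjusted p = 0.00602). Tead4, its relative and the only one called lower, averaged 4.404 ± 0.685 CPM in mutant hearts and 5.95 ± 0.582 CPM in control hearts (SD, n = 3 each; edgeR adjusted p = 0.0301). Mrtfa, a cofactor of serum response factor, averaged 17.8 ± 0.794 CPM in mutant hearts and 14.1 ± 0.745 CPM in control hearts (SD, n = 3 each; edgeR adjusted p = 0.00643). Srf itself averaged 126.3 ± 20.3 CPM in mutant hearts and 110.6 ± 14.9 CPM in control hearts and did not pass (SD, n = 3 each; edgeR adjusted p = 0.265). Tead4 and Srf were named after their values were seen. Gata6, Gata4, Tead1 and Mrtfa kept their calls in all 14 alternatives.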
